A study of Mus musculus with 6 samples.

Results

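The genes described here are 52 genes of DNA replication and S phase, named as a list and matched by symbol in the deposited count files. All 52 were among the 23284 genes counted, and all 52 passed the filter on low counts that left 12951 genes for testing. They were measured in lymph node cells sorted from C3H/HeJ mice, inbred animals of which some develop alopecia areata, an autoimmune loss of hair. The sort selected cells for CD3, CD8, CD44 and CXCR3, the surface pattern of antigen-experienced CD8 T cells. The 2 populations were separated by NKG2D, an activating receptor, into NKG2D+ and NKG2D- cells. RNA from 3 NKG2D+ and 3 NKG2D- libraries was sequenced, and the series states that the populations were sorted from 3 separate mice. The sources used here do not give the age, treatment or disease state of each mouse.

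A cell copies its genome once per division. Origins of replication are licensed in G1 when the origin recognition complex, CDC6 and CDT1 load the MCM2-7 helicase, and they fire in S phase when kinases, CDC45, GINS and MCM10 turn that helicase on. Polymerases with their primase, sliding clamp and clamp loader then copy the strands, nucleotide enzymes supply the building blocks, and chromatin factors restore histones and DNA methylation behind the fork. Many of these genes are transcribed under E2F factors as cells commit to S phase. Resting memory T cells are mostly out of cycle, while effector CD8 T cells divide fast during a response.

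The 6 libraries held 41168816 to 89184611 gene counts. Klrk1, the gene of NKG2D, had a mean of 354 ± 49.7 CPM in the NKG2D+ group and of 35.9 ± 1.35 in the other (means ± SD over 3 libraries each; CPM are gene counts scaled to library size by the TMM method), and Cd3e and Cd8a were abundant in every library. Markers of B cells moved with the groups: all 9 of 9 had a positive log2 fold change, and their summed level was 386 to 590 CPM in NKG2D+ and 109 to 279 CPM in NKG2D- libraries. None of the 9 passed in edgeR, while 8 had an unadjusted p under 0.05 and DESeq2 called 2. The 5 germinal centre B-cell markers summed to 6.18 to 16.0 against 6.68 to 9.22 CPM. The summed level of 10 myeloid markers was 14 to 22.2 CPM in NKG2D+ and 9.32 to 11.2 CPM in NKG2D- libraries, with Cd14 and Emr1 at 0 in NKG2D- library 1. Of the 9 myeloid markers tested, 7 had a positive and 2 a negative log2 fold change. By edgeR 0 passed and 4 had an unadjusted p under 0.05, 3 higher and 1 lower, while DESeq2 called 2 as higher. For 5 plasma cell markers the sums were 74.3 to 192 against 57.2 to 62.6 CPM. All 5 had a positive log2 fold change, 3 had an unadjusted p under 0.05, and DESeq2 called 2 as higher. By edgeR 1 of them, Prdm1, which effector T cells also express, rose (log2 fold change 2.01, adjusted p = 0.0443 by edgeR). The sums were for 6 markers of NK, gamma-delta and NKT cells 4.65 to 6.79 against 2.02 to 3.59 CPM, with Sox13 at 0 in NKG2D- library 1. Of these 6, 4 were tested, all 4 with a positive log2 fold change, 3 at an unadjusted p under 0.05 and 0 called by edgeR or DESeq2. The 4 CD4 T-cell markers summed to 44.4 to 123 against 47.8 to 55.9 CPM. The log2 fold changes of the 4 CD4 T-cell markers ran from -1.81 to 3.44, with 0 passing in edgeR, 3 at an unadjusted p under 0.05, and 2 called higher and 1 lower by DESeq2. The part of these other cells in the results below was not tested.

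Of the 52 replication genes, 2 passed the test between NKG2D+ and NKG2D- cells and 50 did not. Cdc6, the licensing factor, rose 1.58-fold and Clspn, which encodes the checkpoint adaptor claspin, rose 1.83-fold in NKG2D+ cells, and no other member passed the test (edgeR quasi-likelihood test, Benjamini-Hochberg adjusted over all genes tested). These calls come from the fit without pairing: with the replicate number as a block neither passed (adjusted p = 0.0918 for Cdc6 and 0.0677 for Clspn), and Rrm2 did (adjusted p = 0.0364). The largest log2 fold changes among members that did not pass without the block belonged to the nucleotide enzymes Rrm2 and Tk1, at 0.94 and 0.91. The 6 helicase subunits Mcm2 to Mcm7, the clamp Pcna and the single-strand binding gene Rpa1 had log2 fold changes between -0.08 and 0.11. Pole2, an accessory subunit of DNA polymerase epsilon, had the lowest value, -0.57, and did not pass.

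The 2 members called as higher made up 3.85% of the 52, beside 1.65% of all 12951 genes (2.02% in either direction). No member was called lower by edgeR, beside 0.363% of all genes, although 1 had an unadjusted p under 0.05 in that direction. DESeq2 called 10 of the 52 members as higher and 1 as lower. Among the 12951 genes that passed the same filter as the members, it called 1001 as higher and 414 as lower. Among all 18239 genes it tested, 5.64% were called higher, 2.28% lower and 7.91% in either direction. Limma-voom called 0 members, beside 0.463% of all genes as higher, 0.178% as lower and 0.641% in either direction. At an unadjusted p under 0.05 stood 14 members, which is 26.9% of the list beside 21.1% of all genes. Of the 14, 13 were higher and 1 was lower, beside 1615 higher and 1116 lower of the 12951 genes. The split by direction was thus less even than in all genes, and it was not tested. With 2 calls by edgeR, and an unadjusted share near that of all genes when both directions are pooled, these counts are not a result about the list.

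The direction was less even than in all genes. A positive log2 fold change was found for 41 of 52 members (78.8%), beside 47.2% of all genes, and the median was 0.12, beside -0.01 over all genes. All 3 NKG2D+ libraries lay above all 3 NKG2D- libraries for 17 members (32.7%, beside 15.1% of all genes), and below them for 2 (3.85%, beside 14.1%). The 17 were Cdc6, Gmnn, Mcm6, Cdc45, Mcm10, Rfc2, Rfc3, Lig1, Rrm1, Rrm2, Tk1, Dut, Slbp, E2f2, Ccne2, Clspn and Brca1, and the 2 were Pole2 and Rfc1. Members share their libraries and the cell cycle, so these counts are a description and not a test. In bulk RNA, a larger share of cells in S phase and more of these transcripts per cell cannot be told apart.

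**Figure D1:**
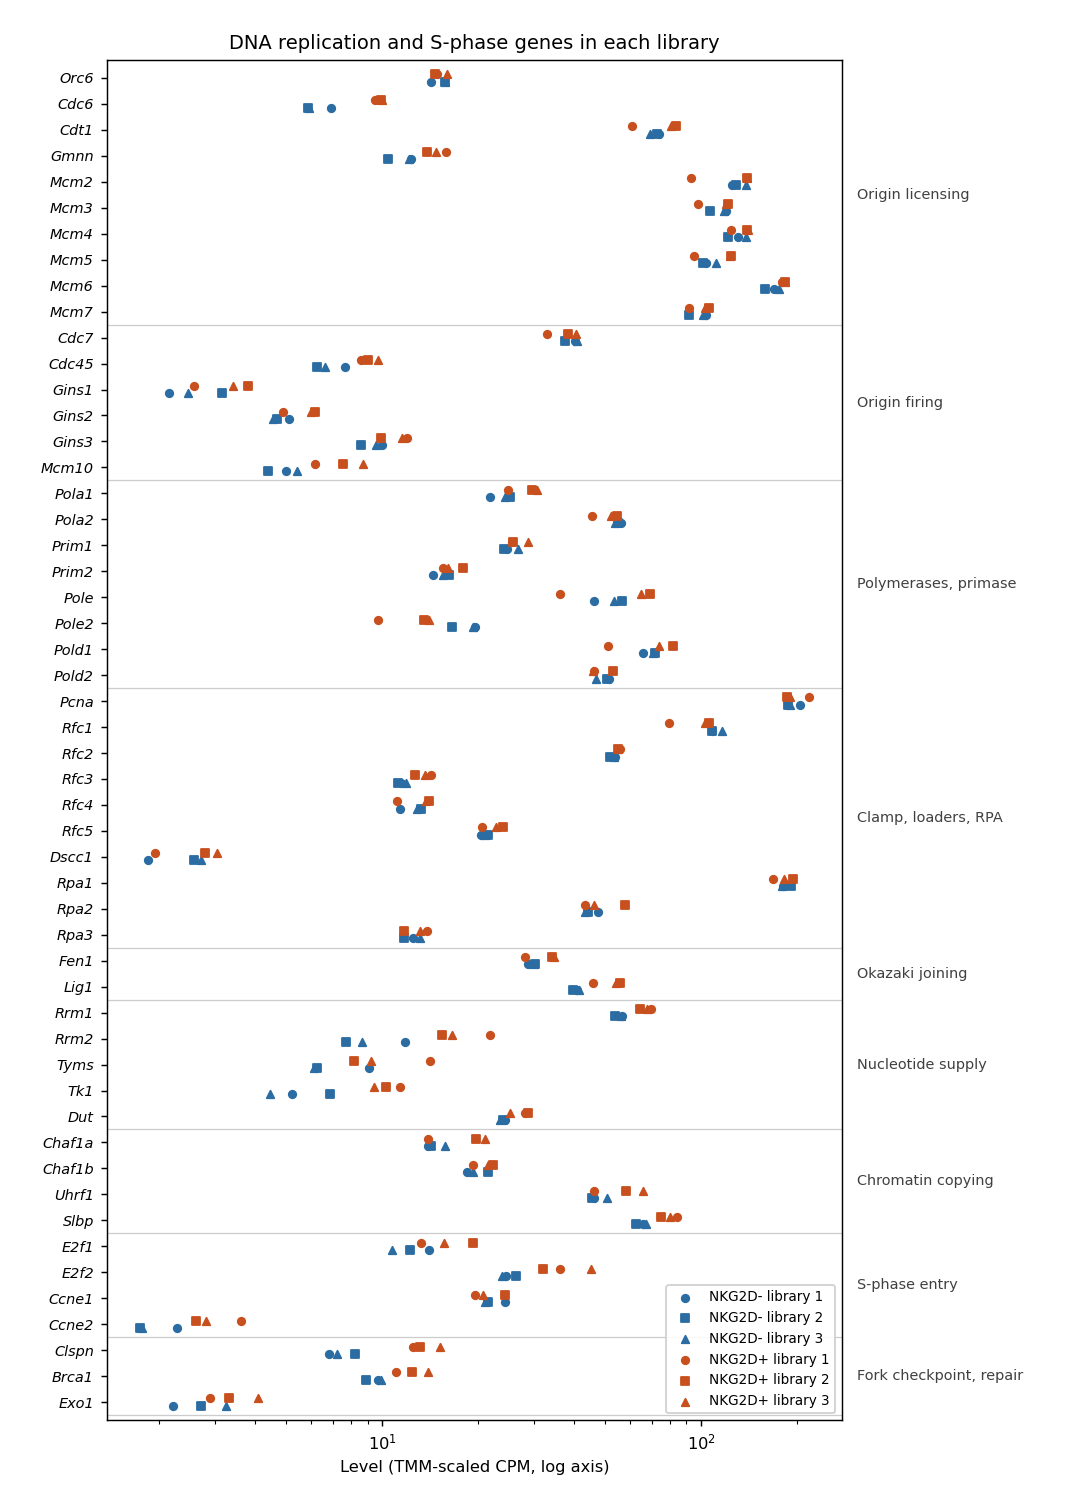
Level of each of the 52 members (rows, by role) in each library, as TMM-scaled CPM on a log axis, with NKG2D+ libraries in orange and NKG2D- libraries in blue and 1 marker shape per library number. For Clspn, Rrm2 and Tk1 the orange and blue points stand apart, while those of most Mcm genes overlap.

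**Figure D2:**
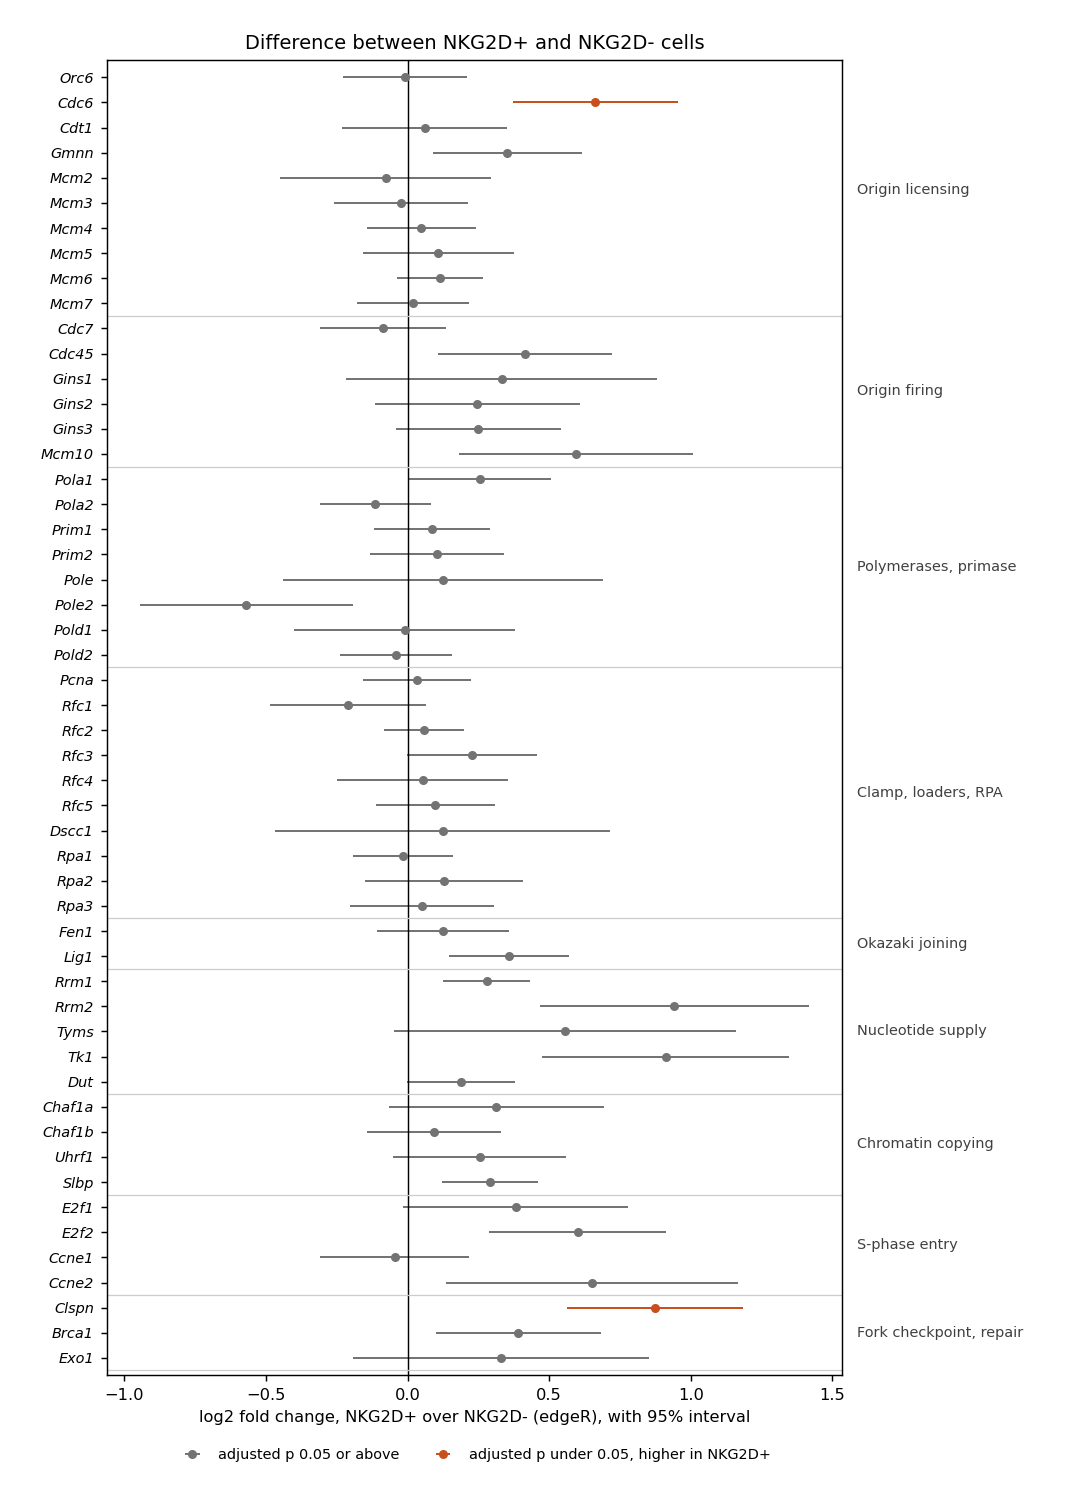
Fitted log2 fold change of each member, NKG2D+ over NKG2D-, with its 95% interval from edgeR. Points are coloured where the adjusted p was under 0.05, which holds for Cdc6 and Clspn.

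For 33 of the 52 members the 95% interval of the difference lay within 1.5-fold in both directions, and for the other 19 it reached past 1.5-fold. Those 33 included 8 of 10 licensing genes, 9 of 10 genes of the clamp, its loaders and RPA, and 6 of 8 polymerase and primase genes. For these 33, differences larger than 1.5-fold lay outside the 95% interval, and smaller ones may exist. The plot of fitted fold changes shows the width of each interval.

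Promoter sequences are shown for Cdc6 and Clspn, which passed the test, and for Mcm6 and Pola1, which did not pass. Cdc6, Mcm6 and Pola1 hold the E2F recognition letters that were searched, TTTCCCGC or TTTGGCGC, and Clspn does not. Other forms of E2F site were not searched, so Clspn may hold one of them. All but Cdc6 were chosen for display after their values were seen. Each line gives the 250 bases before the annotated start, 5′ to 3′ on the gene's strand, from RefSeq on build GRCm38.p6, with matches to TTTCCCGC or TTTGGCGC on either strand in capitals. The libraries were aligned to mm9, so these positions are those of the RefSeq table. They are chr11:98907901-98908150 on the plus strand for Cdc6, chr4:126556730-126556979 on the plus strand for Clspn, chr1:128359706-128359955 on the minus strand for Mcm6 and chrX:93632156-93632405 on the minus strand for Pola1.
Cdc6: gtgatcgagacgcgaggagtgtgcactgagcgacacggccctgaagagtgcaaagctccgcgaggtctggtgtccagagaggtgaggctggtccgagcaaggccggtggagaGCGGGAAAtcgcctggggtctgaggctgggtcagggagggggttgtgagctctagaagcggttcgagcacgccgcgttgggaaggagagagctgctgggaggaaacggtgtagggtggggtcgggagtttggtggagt
Clspn: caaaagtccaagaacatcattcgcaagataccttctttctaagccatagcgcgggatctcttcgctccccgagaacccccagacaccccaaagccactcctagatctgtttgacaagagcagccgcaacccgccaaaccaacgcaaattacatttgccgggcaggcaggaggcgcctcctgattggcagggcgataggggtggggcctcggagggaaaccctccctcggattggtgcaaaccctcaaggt
Mcm6: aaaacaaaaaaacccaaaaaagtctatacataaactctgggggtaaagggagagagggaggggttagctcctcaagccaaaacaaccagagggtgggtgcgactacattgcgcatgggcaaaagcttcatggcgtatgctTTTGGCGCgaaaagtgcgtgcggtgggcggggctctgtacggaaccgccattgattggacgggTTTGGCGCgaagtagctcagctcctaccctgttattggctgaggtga
Pola1: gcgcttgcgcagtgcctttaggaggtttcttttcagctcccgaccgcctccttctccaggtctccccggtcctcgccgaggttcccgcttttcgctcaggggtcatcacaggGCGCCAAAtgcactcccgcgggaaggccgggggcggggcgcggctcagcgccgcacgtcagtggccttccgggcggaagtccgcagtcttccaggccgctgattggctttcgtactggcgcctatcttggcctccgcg
The match began 138 bases before the start in both Cdc6 and Pola1, and 110 and 47 bases before it in Mcm6. In windows of 300 bases, from 250 before to 50 after the start, 12 of the 42 members with a window held such a match (28.6%), beside 1.8% of 27025 genes with a window and 3.44% of the 9194 tested genes with one. A gene with several windows counted once if any of them matched. The 12 were Cdc6, Cdt1, Mcm3, Mcm5, Mcm6, Mcm7, Gins3, Pola1, Pole2, Pold1, Rfc3 and E2f2. Of the 14 members with a window whose libraries were all higher in NKG2D+, 4 held a match (28.6%), the share in the whole list. The letters CCAAT, on either strand, occurred in 26 of 42 members (61.9%, beside 42.9% of tested genes), and TTTGAA, the core of the cell-cycle homology element, in 7 of 42 (16.7%, beside 14.4%). Overlap of 1 motif with another was not examined, and a match is a description of letters and not of binding.

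Licensing genes prepare origins in G1. Cdc6, which loads the helicase, stood at 9.52, 9.94 and 10.0 CPM in NKG2D+ libraries 1, 2 and 3 and at 6.9, 5.85 and 5.88 CPM in NKG2D- libraries 1, 2 and 3. Every NKG2D+ library lay above every NKG2D- library, and the 3 NKG2D+ values were close to each other. The log2 fold change was 0.66 (SE 0.12) and edgeR's quasi-likelihood test gave an adjusted p of 0.0498, just under the threshold of 0.05. With the replicate number as a block the adjusted p was 0.0918, and with limma-voom 0.0627.

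The helicase subunits Mcm2 to Mcm7 had log2 fold changes from -0.08 to 0.11, and 0 of the 6 passed. Mcm6, the most abundant of the licensing genes in CPM, stood at 179.5, 183 and 183 CPM in NKG2D+ and at 169, 159 and 176 CPM in NKG2D- libraries. The groups did not overlap, but the log2 fold change was 0.11 (SE 0.06, adjusted p = 0.366 by edgeR). Mcm2 stood at 92.8, 139.7 and 139.2 against 125, 129 and 139 CPM, so NKG2D+ library 1 was the lowest of all 6 and NKG2D+ libraries 2 and 3 were the highest. For 5 of the 6 subunits the groups overlapped. Per kilobase of exon, Mcm2 to Mcm7 stood between 32.9 and 41.5 CPM in NKG2D+ and between 30.5 and 38.8 CPM in NKG2D- cells, a narrow range for the subunits of 1 ring.

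Loading has a promoter, CDT1, and an inhibitor, geminin. Cdt1, the partner of Cdc6 in loading, stood at 60.7, 83.3 and 80.6 CPM in NKG2D+ and at 73.9, 72.7 and 68.9 CPM in NKG2D- libraries (log2 fold change 0.06, SE 0.12). Gmnn, which encodes geminin, the inhibitor of CDT1, stood at 15.9, 13.9 and 14.8 against 12.3, 10.4 and 12.1 CPM, a log2 difference of 0.35 (SE 0.11, adjusted p = 0.142 by edgeR). The groups overlapped for Cdt1 and not for Gmnn, and neither passed the test. Orc6, a subunit of the origin recognition complex, had a log2 fold change of -0.01 (95% interval -0.23 to 0.21). Of the 10 licensing genes, 1 rose, 0 fell, and 2 had an unadjusted p under 0.05.

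Firing factors turn the loaded helicase into a moving fork. Of 6 genes, 0 passed in edgeR or limma-voom, 2 had an unadjusted p under 0.05, and DESeq2 called 2, Cdc45 and Mcm10, as higher. Mcm10, which binds the active helicase, stood at 6.16, 7.52 and 8.73 CPM in NKG2D+ and at 5.01, 4.4 and 5.43 CPM in NKG2D- libraries. Its groups did not overlap, with a log2 fold change of 0.60 (SE 0.17, adjusted p = 0.124 by edgeR). Cdc45, a helicase cofactor, had a log2 fold change of 0.41 (SE 0.13, adjusted p = 0.141). The GINS genes, whose products complete the same helicase, had log2 fold changes of 0.33 for Gins1, 0.25 for Gins2 and 0.25 for Gins3, with overlapping libraries. Cdc7, the kinase that triggers firing and the most abundant of the 6 in CPM, stood at 32.9, 38.2 and 40.4 against 40.3, 37.4 and 40.8 CPM. Its log2 fold change was -0.09 (SE 0.09), with overlapping libraries.

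Polymerases and primase start and extend the new strands. Of 8 genes, 0 passed by edgeR or limma-voom, 1 had an unadjusted p under 0.05, and DESeq2 called 1, Pole2, as lower (adjusted p = 0.0167). Pole2 stood at 9.7, 13.5 and 14.1 CPM in NKG2D+ and at 19.5, 16.6 and 19.2 CPM in NKG2D- libraries. All NKG2D+ values lay below all NKG2D- values, by a log2 fold change of -0.57 (SE 0.16, adjusted p = 0.113 by edgeR). Exons of Pole2 overlap another gene on the same strand by 245 bases in GENCODE vM21, so the level of Pole2 is uncertain. Pole, which encodes the catalytic subunit of the same leading-strand polymerase, stood at 36.1, 69.3 and 64.8 against 46.2, 56.6 and 53.3 CPM, with NKG2D+ library 1 the lowest and NKG2D+ libraries 2 and 3 the highest. Its log2 fold change was 0.12 with a 95% interval of -0.44 to 0.69, so the data leave a difference of either sign possible.

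Pold1, the catalytic subunit of polymerase delta, which copies mainly the lagging strand, was the most abundant of these 8 in CPM. It stood at 51.0, 81.8 and 73.8 in NKG2D+ and at 65.9, 71.6 and 70.5 CPM in NKG2D- libraries, with NKG2D+ libraries at both ends of the range. Its log2 fold change was -0.01 (95% interval -0.40 to 0.38). Pold2, its accessory subunit, was at -0.04, and Pola2, a subunit of polymerase alpha, at -0.11. Pola1, the catalytic subunit of polymerase alpha, was at 0.25, and its primase partners Prim1 and Prim2 were at 0.09 and 0.10. In all, 4 of the 8 values were positive and 4 negative.

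The sliding clamp tethers polymerases to DNA, clamp loaders place it, and RPA coats single strands. Pcna, the clamp, stood at 218, 187 and 190.2 CPM in NKG2D+ and at 204, 187 and 189.8 CPM in NKG2D- libraries. Its 2 highest values came from the libraries numbered 1, and the groups overlapped (log2 fold change 0.03, 95% interval -0.16 to 0.22). Per kilobase of exon Pcna was the most abundant member, with 131 CPM in NKG2D+ against 128 CPM in NKG2D- cells. Pcna has named pseudogene copies, so reads may have been set aside as not unique and its level is uncertain.

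Among the 10 genes of clamp, loaders and RPA, 0 passed by edgeR, DESeq2 or limma-voom, and 0 had an unadjusted p under 0.05. The loader subunits Rfc2, Rfc3, Rfc4 and Rfc5 had log2 fold changes of 0.06, 0.23, 0.05 and 0.10. Rfc1, the large loader subunit, stood at 79.2, 106 and 103 against 108, 108 and 117 CPM, all NKG2D+ values below all NKG2D- values (log2 fold change -0.21, SE 0.12, adjusted p = 0.357 by edgeR). Dscc1, of the alternative loader for cohesion, was at 0.12 with a wide interval of -0.47 to 0.72. The RPA genes Rpa1, Rpa2 and Rpa3 were at -0.02, 0.13 and 0.05.

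Lig1 and Fen1 act together on Okazaki fragments, FEN1 trimming the flap and LIG1 sealing the nick. Lig1 stood at 46, 55.9 and 54.2 CPM in NKG2D+ and at 40.7, 39.7 and 41.5 CPM in NKG2D- libraries. The groups did not overlap, and the 3 NKG2D- values were close together (log2 fold change 0.36, SE 0.09). The adjusted p was 0.0911 by edgeR, 0.117 by edgeR with the replicate block, 0.132 by limma-voom and 0.0186 by DESeq2. Of these fits, Lig1 passed only in DESeq2. Fen1 stood at 28, 34.2 and 34.6 against 28.7, 30.1 and 30.0 CPM, with overlap (log2 fold change 0.13, SE 0.10).

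Enzymes of nucleotide supply make the building blocks of new DNA. By edgeR 0 of the 5 passed, with 3 at an unadjusted p under 0.05, while DESeq2 called 3 and limma-voom 0. The NKG2D+ library had the higher level in 3 of 3 same-numbered pairs for 5 of these 5 genes, beside 29 of the 52 members and 3356 of the 12951 genes tested. Rrm2, the small subunit of ribonucleotide reductase that is made in S phase, stood at 21.8, 15.4 and 16.6 CPM in NKG2D+ and at 11.8, 7.69 and 8.62 CPM in NKG2D- libraries. The library numbered 1 was the highest in each group, and the groups did not overlap. The log2 fold change was 0.94 (SE 0.20), the largest of the list (adjusted p = 0.0687 by edgeR). With the replicate number as a block, Rrm2 passed (adjusted p = 0.0364) as the single member that did, beside 0.44% of all genes called higher, 0.0849% called lower and 0.525% called in either direction in that fit.

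Tk1, the thymidine kinase of dividing cells, stood at 11.3, 10.3 and 9.43 CPM in NKG2D+ and at 5.21, 6.85 and 4.44 CPM in NKG2D- libraries. Every NKG2D+ library was above every NKG2D- library (log2 fold change 0.91, SE 0.18, adjusted p = 0.0611 by edgeR, 0.0799 by limma-voom and 0.000179 by DESeq2). Rrm1, the large reductase subunit and the most abundant of these enzymes in CPM, stood at 69.7, 64.4 and 67.8 against 56.4, 53.8 and 56.0 CPM. Its difference was smaller than that of Rrm2 and its spread narrow (log2 fold change 0.28, SE 0.06, adjusted p = 0.0814 by edgeR). Tyms, thymidylate synthase, was at 0.55 with overlapping groups, and Dut, which removes dUTP, at 0.19 without overlap. Tyms has a named pseudogene copy, so its level is uncertain.

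Chromatin has to be rebuilt on new DNA. Of 4 such genes, 0 passed by edgeR or limma-voom, 1 had an unadjusted p under 0.05, and DESeq2 called 1, Slbp. Slbp, which encodes the binding protein of histone mRNA stem loops, stood at 84.3, 75.0 and 80.1 CPM in NKG2D+ and at 65.9, 62.5 and 67.4 CPM in NKG2D- libraries. The groups did not overlap (log2 fold change 0.29, SE 0.07, adjusted p = 0.0888 by edgeR). Uhrf1, which guides maintenance methylation to new DNA, was at 0.25, and the chromatin assembly subunits Chaf1a and Chaf1b were at 0.31 and 0.09. For all 4 genes the NKG2D+ library had the higher level in 3 of 3 pairs, as for 29 of the 52 members and 3356 of the 12951 genes tested.

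Regulators of S-phase entry include the E2F factors and cyclin E. E2f2, a transcription factor of the S-phase programme, stood at 36.1, 32.0 and 45.1 CPM in NKG2D+ and at 24.4, 26.4 and 23.8 CPM in NKG2D- libraries. The groups did not overlap, with NKG2D+ library 3 the highest (log2 fold change 0.60, SE 0.13, adjusted p = 0.073 by edgeR and 0.00257 by DESeq2). E2f1, its close relative, was at 0.38 with overlapping libraries. The cyclin E genes, whose products activate CDK2, were measured at different levels: Ccne1 was at a log2 fold change of -0.05 (95% interval -0.31 to 0.22) and Ccne2 at 0.65 (95% interval 0.14 to 1.17). Ccne2 stood at 3.62, 2.61 and 2.81 against 2.27, 1.74 and 1.76 CPM, without overlap. Of the 4 genes 0 passed by edgeR or limma-voom, 2 had an unadjusted p under 0.05, and DESeq2 called 1, E2f2.

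Fork checkpoint and repair genes guard stalled forks. Clspn stood at 12.5, 13.2 and 15.2 CPM in NKG2D+ and at 6.83, 8.25 and 7.22 CPM in NKG2D- libraries. The lowest NKG2D+ value was well above the highest NKG2D- value. The log2 fold change was 0.87 (SE 0.13) and the adjusted p 0.0323 by edgeR's quasi-likelihood test, the smallest of the list. The adjusted p was 0.0677 with the replicate block, 0.0531 by limma-voom and 5.33e-07 by DESeq2. Brca1, a repair gene that also protects forks, stood at 11.1, 12.4 and 13.9 CPM against 9.7, 8.89 and 9.93 CPM without overlap, at 0.39 (SE 0.12, adjusted p = 0.141 by edgeR). Exo1, an exonuclease of resection and mismatch repair, was at 0.33 with overlapping libraries.

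Levels were also summed over each role and compared within each same-numbered pair. Such a pair is called mouse 1, 2 or 3 below. That both libraries of a pair came from 1 mouse was assumed, as the sample labels give only the number. The summed level of all 52 genes was 2210, 2519 and 2500.3 CPM in NKG2D+ and 2285, 2231 and 2311 CPM in NKG2D- libraries 1, 2 and 3. The groups overlapped, since NKG2D+ library 1 was the lowest of the 6. The NKG2D+ library held 0.967, 1.13 and 1.08 times the summed level of the NKG2D- library of the same number. For nucleotide enzymes the same ratio was 1.36, 1.29 and 1.3, and for polymerases and primase 0.847, 1.09 and 1.05. Abundant genes such as the Mcm genes, Pcna and Rpa1 weigh most in the total.

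**Figure D3:**
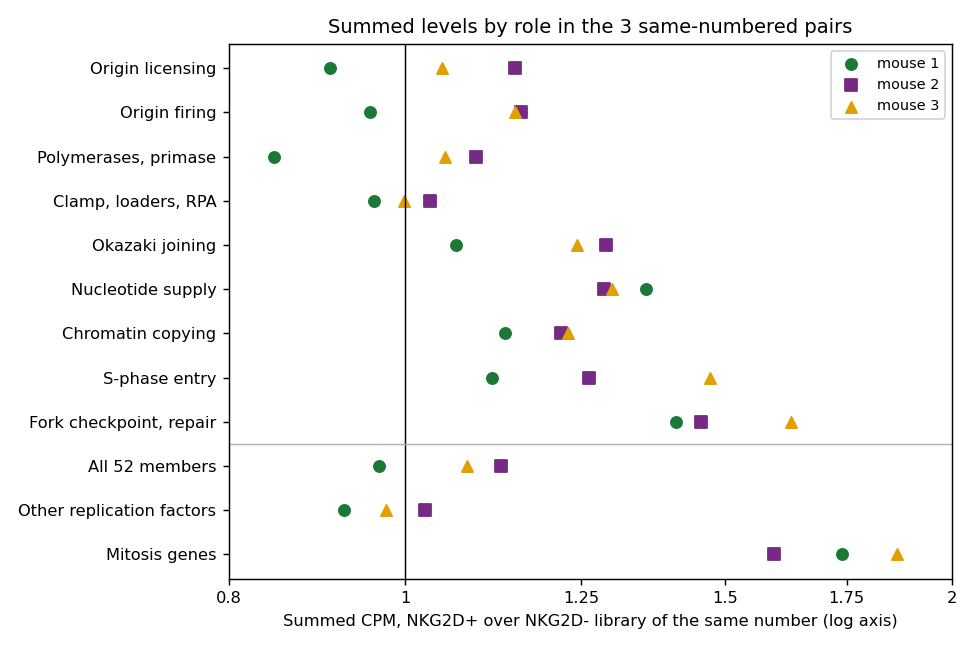
Ratio of summed CPM, NKG2D+ over NKG2D- library of the same number, for each role, for all members and for 2 comparison lists, on a log axis. Each marker is 1 same-numbered pair, labelled as a mouse by assumption. Ratios for Okazaki joining, nucleotide supply, chromatin copying, S-phase entry and checkpoint and repair genes lie above 1 in all 3 pairs, while licensing, firing, polymerase and clamp genes lie below 1 in pair 1.

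In mouse 1, 32 of 52 members were higher in the NKG2D+ library, in mouse 2 47 and in mouse 3 45, beside 47.3%, 49.8% and 46.6% of all genes. The median log2 ratio of the members (CPM plus 0.5) was 0.06, 0.21 and 0.17 in mice 1, 2 and 3, beside -0.02, -0.001 and -0.02 over all genes. NKG2D+ library 1 was the lowest of the 6 libraries for 14 members and the highest for 12. That library also stood at an extreme for many other genes, the lowest for 31.9% and the highest for 30.2% of all genes tested, and it had the highest summed B-cell markers. Without it, the median log2 fold change of the members was 0.21 in place of 0.12, and 5 members passed by edgeR, Cdc6, Clspn, Chaf1a, Lig1 and Mcm10. Calls over all genes rose as well in that fit, with 3.22% called higher in place of 1.65%, and 4.13% called in either direction in place of 2.02%.

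**Figure D4:**
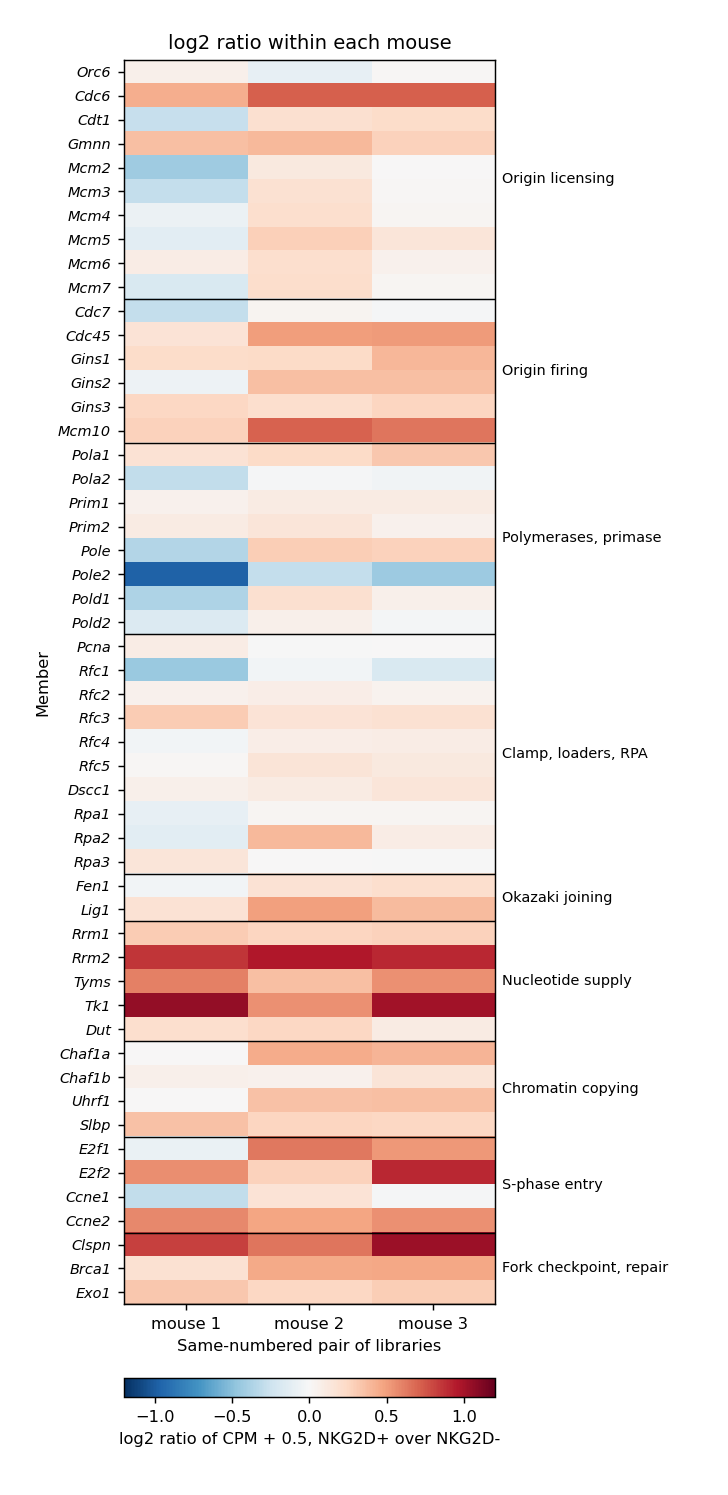
Heat map of the log2 ratio of CPM plus 0.5, NKG2D+ over NKG2D-, for each member (rows, by role) in each same-numbered pair (columns), with red for higher and blue for lower in NKG2D+. The column of mouse 1 holds more blue cells, with 32 members higher in NKG2D+ against 47 and 45 in mice 2 and 3.

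Replication genes outside the list were also counted. Of 35 other replication factors tested, among them further ORC, polymerase and helicase-associated genes, 0 passed by edgeR, DESeq2 or limma-voom, with 2 at an unadjusted p under 0.05, and the median log2 fold change was -0.03. Their smallest p belonged to Dna2, a nuclease of flap processing, whose mean was 4.96 ± 0.74 CPM in the NKG2D+ and 3.54 ± 0.427 CPM in the NKG2D- group, a log2 difference of 0.49 (SE 0.18, adjusted p = 0.195 by edgeR). Of 18 genes of replication stress and recombination, 0 passed by edgeR or limma-voom, 3 had an unadjusted p under 0.05, DESeq2 called 1, and the median was 0.02.

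Genes called by edgeR stood in both other lists. Of 28 genes that control entry into S phase, 2 rose and 0 fell by edgeR, DESeq2 called 9 as higher and limma-voom 0, and the median log2 fold change was 0.12. The 2 made up 7.14% of these genes, beside 1.65% of all genes, and DESeq2 called 5.64% of all genes it tested as higher. Ccna2, which encodes the S-phase and G2 cyclin A, rose from 5.58 ± 0.804 to 9.77 ± 0.189 CPM, a log2 difference of 0.81 (SE 0.14, adjusted p = 0.043 by edgeR). Cdkn2a, which encodes the cell-cycle inhibitors p16 and p19ARF, rose too, at 3.12, 1.03 and 1.85 CPM in NKG2D+ and 0.101, 0.321 and 0.25 CPM in NKG2D- libraries (log2 fold change 3.10, SE 0.54, adjusted p = 0.0443). With the replicate block their adjusted p-values were 0.0777 and 0.109. In the fit without the block, an activator of cycling and an inhibitor gene were thus both called as higher in NKG2D+ cells. Cdkn2a was close to the floor in NKG2D- libraries, at 0.101 to 0.321 CPM. The other inhibitor genes of this list, such as Cdkn1a and Cdkn1b, did not pass in that fit.

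Of 20 mitosis genes, 5 rose and 0 fell by edgeR, DESeq2 called 14, limma-voom 4 and the replicate block 2, and the median log2 fold change was 0.67. Mki67, Top2a, Kif11 and Aurkb had the smallest p-values, with log2 fold changes of 1.12, 0.87, 0.98 and 1.05. Of all genes, edgeR called 1.65% as higher, limma-voom 0.463% and the replicate block 0.44%, and DESeq2 called 5.64% of those it tested. For 17 of the 20 (85%) all NKG2D+ libraries lay above all NKG2D- libraries, beside 15.1% of all genes. The summed level of these 20 genes was 281, 254 and 267 CPM in NKG2D+ and 162, 159 and 143 CPM in NKG2D- libraries, a ratio of 1.73 between the means, where that of the 52 replication genes was 1.06. Abundant genes such as the Mcm genes, Pcna and Rpa1 weigh most in the sum of the 52, whose median log2 fold change was 0.12. The difference between the lists was not tested.

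**Figure D5:**
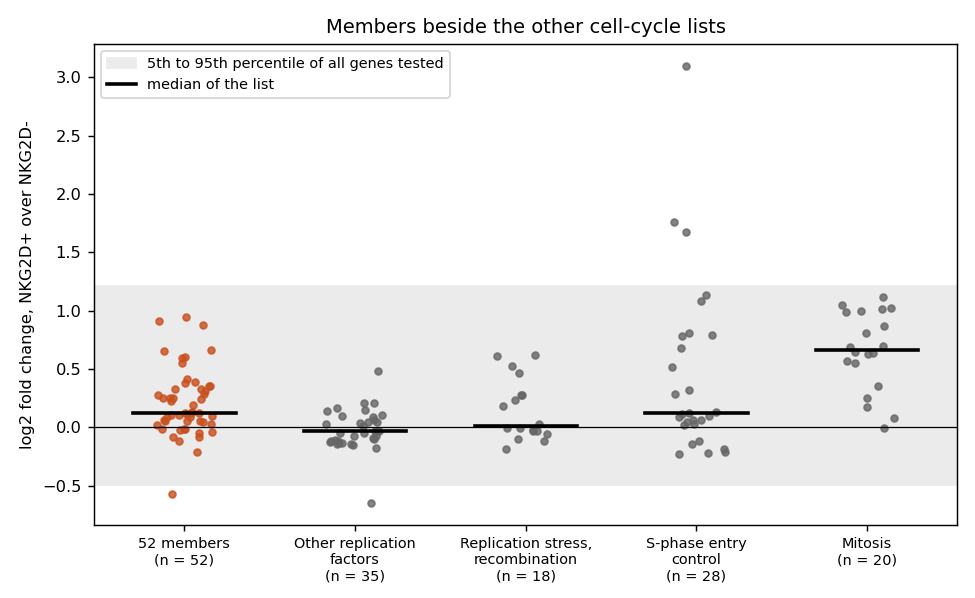
Log2 fold change, NKG2D+ over NKG2D-, of each tested gene in the list of 52 members and in 4 comparison lists (points, spread sideways for sight), with the median of each list as a bar and the span from the 5th to the 95th percentile of all genes tested in grey. The medians are 0.12 for the members and 0.67 for the mitosis genes.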

How the data were processed

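For each library the authors deposited a table of raw counts by gene symbol, with 5 rows that name no gene. The submitters' processing notes list CASAVA 1.8.2, TopHat2 2.0.4 and mm9. The sources used here name no counting program, annotation or strand setting. The 5 rows entered neither library sizes nor tests; of the sum of all rows, alignments that were not unique made up 19.7% to 26.2%, reads outside genes 14% to 15.9% and ambiguous reads 0.715% to 0.836%. Without a known strand setting, members whose exons overlap another gene's, such as Chaf1a, Gins2, Fen1, Lig1, Tk1 and Slbp, may have lost or gained reads. Pole2 overlaps another gene on its own strand, so its reads may be affected under any strand setting.

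Counts were tested in R 4.3.3 with edgeR 4.0.16 (TMM, filterByExpr with a minimum count of 10 and total of 15, robust quasi-likelihood F-test in legacy mode, group as the only term), with Benjamini-Hochberg adjustment over 12951 genes and a threshold of 0.05. DESeq2 1.42.0, limma-voom (limma 3.58.1), RLE size factors, no filter, a replicate block and leaving out libraries were alternatives. The SE is the log2 fold change divided by the square root of F, and the 95% interval uses the test's degrees of freedom. Levels per kilobase use the union of exons in GENCODE vM21 on GRCm38, not the authors' annotation.

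Same-numbered libraries were taken to come from 1 mouse, since the series describes 3 separate mice. Deviations from group means correlated across genes within same-numbered pairs with r of 0.21, 0.16 and 0.28, where genes are not independent replicates. Libraries with the same number also carry 1 lane tag in their file names, and the effects of mouse and lane cannot be told apart.

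The members and lists were chosen with earlier results of these data known. Values in every library are given for called members, the most abundant member of each role in CPM, and the members with the largest and smallest log2 fold change; other members given in full were chosen after their values were seen. Of the other lists, up to 4 called genes by smallest p are named, or the gene with the smallest p where none was called. For the list of replication stress and recombination that gene is not reported here.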

Additional observations from a re-analysis of the deposited data

How the results depend on the processing

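The count of members called as higher was 2 in edgeR and depended on the tool and on single libraries. It was 10 with DESeq2, 0 with limma-voom, 1 without the filter on low counts, 1 with the replicate block (Rrm2, in place of Cdc6 and Clspn) and 2 with RLE size factors. Leaving out 1 library gave 0 to 7 members, with 5 without NKG2D+ library 1, 7 without NKG2D+ library 2 and 0 without NKG2D+ library 3 or any NKG2D- library. Of all genes, 3.22% were called higher without NKG2D+ library 1 and 6.86% without NKG2D+ library 2, beside 1.65% in the main fit. Without both libraries of mouse 1, 2 and 3 the count of members was 4, 0 and 0, beside 1.36%, 2.45% and 0% of all genes called higher. The count called as lower was 0 in all of these except DESeq2, with 1, Pole2. Over all genes, 261 were called, 1443 by DESeq2, 83 by limma-voom, 68 with the block, 8 to 1312 without 1 library, and 0 without both libraries of mouse 3, where 7 members and 971 genes had an unadjusted p under 0.05. The median log2 fold change of the members ran from 0.11 to 0.21 over libraries left out and was 0.20 without mouse 1.

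Clspn passed in 6 of 14 alternatives and Cdc6 in 5, with adjusted p-values from 5.33e-07 to 0.597 and from 2.96e-05 to 0.647 and log2 fold changes of 0.76 to 0.99 and 0.61 to 0.77. In all 14 alternatives, 35 of 52 members kept the sign of their log2 fold change, among them all 17 whose libraries were all higher in NKG2D+. Pcna ran from -0.038 (without NKG2D+ library 1) to 0.075 over single libraries left out and was -0.0021 without mouse 1. Pold1 ran from -0.15 (without NKG2D+ library 2) to 0.17 (without NKG2D+ library 1), with 0.011 without NKG2D- library 2, and was 0.13 without mouse 1, and Cdc7 turned to 0.0079 without mouse 1. The cause of these changes was not tested.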

Other observations

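The members were split by abundance at a mean of 20 CPM, chosen after the values were seen. The 23 members under 20 CPM, among them Clspn, Tk1, Rrm2 and Mcm10, had a median log2 fold change of 0.33, and 21 of them were positive. The 29 members at or above 20 CPM, among them the Mcm2-7 genes, Pcna and Rpa1, had a median of 0.09, with 20 positive. Over all tested genes within the members' range of levels, the medians were 0.0011 under 20 CPM and -0.03 at or above it. All libraries were higher in NKG2D+ for 43.5% of the members under 20 CPM and 24.1% of those above, beside 19.1% and 11.6% of all genes of those levels.

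Partner genes of 1 complex or pathway were also compared as a ratio of counts within each library, which does not depend on scaling; the 5 ratios were chosen after the values were seen. The ratio of Rrm2 to Rrm1, the 2 reductase subunits, was 0.313, 0.24 and 0.245 in the NKG2D+ libraries numbered 1, 2 and 3, against 0.208, 0.143 and 0.154 in the NKG2D- libraries. The ratio of Pole2 to Pole was 0.269, 0.195 and 0.217 against 0.422, 0.293 and 0.36, and that of Ccne2 to Ccne1 0.184, 0.108 and 0.136 against 0.0935, 0.0809 and 0.0841. These 3 ratios did not overlap between the groups (two-sided exact permutation p = 0.1 each, the lowest that 3 against 3 allows, and 0.167 after Benjamini-Hochberg adjustment over 5 ratios). The ratio of Gmnn to Cdt1 and that of E2f2 to E2f1 overlapped (exact permutation p = 0.3 and 0.4, adjusted p = 0.375 and 0.4). Because the ratios were chosen on these same values, the p-values describe them and do not test a difference. The permutations also took no account of the library numbers.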
